A study of Mus musculus with 12 samples.

Results

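The genes described here are 38 imprinted genes of the mouse, chosen from a list by name and grouped by the chromosomal cluster to which each is known to belong. They were followed through embryoid bodies, the aggregates that embryonic stem (ES) cells form as they differentiate. Of the 38 genes, 32 had a probe set annotated to that gene alone, out of 19938 genes on the array with such a probe set. Usp29, Zim1 and Plagl1 were too dim to be tested (mean log2 level below 6.455, the 20th percentile over all genes), which left 29 members among 15950 genes tested. No probe set was annotated to H19, Mirg, Snrpn, Ube3a, Gnas or Zrsr1 alone, and these 6 are not analysed here.

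Imprinted genes are transcribed mainly from the copy inherited from the mother or mainly from the copy inherited from the father. The choice is written as DNA methylation in the germ line at control regions, each of which can govern several neighbouring genes. Many of them regulate fetal and placental growth: Igf2 is a fetal growth factor, Igf2r a receptor that takes it up for breakdown, and Cdkn1c a cell cycle inhibitor. Arrays do not separate parental copies, so a level says nothing of which copy was active.

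Every sample came from the ES cell line A2lox (strain background 129P2/OlaHsd), kept on irradiated mouse embryonic fibroblasts and freed of this feeder layer before aggregation. Both lines carried a doxycycline (dox) inducible construct, also in the arrays without dox. In the Geminin knockdown line dox induces microRNAs against the Geminin transcript, and in the Geminin overexpression line it induces Geminin, a regulator of replication licensing. The knockdown line had 3 arrays without dox and 3 with 0.5 µg/ml dox from day 0, all collected on day 4. The overexpression line received the same dose from day 3, with 2 arrays without and 2 with dox on day 5 (replicates 1 and 2) and 1 of each on day 4 (replicate 3). Each replicate number within a line gave a pair of arrays, 1 without and 1 with dox, so there were 6 pairs. The labels do not say whether replicates were separate cultures or whether each line was 1 clone. The spread behind each p-value may therefore be technical. Levels are log2 intensities after quantile normalization, and differences are differences of log2 levels.

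The mean deposited intensity per array lay between 677.3 and 696.6. Gmnn, the Geminin gene, was at 9.63 to 9.74 with dox and 10.05 to 10.33 without in the knockdown line, and at 10.83 to 11.38 with dox and 10.15 to 10.35 without in the overexpression line. Both pluripotency genes (14 of 14 listed genes measured) and primitive streak and mesoderm genes (14 of 15), which early embryoid bodies express side by side, were measured. The mean log2 level of the mesoderm list was 7.30 to 8.48 in the 6 knockdown arrays and 9.26 to 9.62 in the 6 overexpression arrays, with no overlap between the lines. In bulk RNA, fewer cells of a type and less RNA per cell cannot be told apart.

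Promoter sequences are shown for 5 of the imprinted genes on which the results turn: Igf2, Peg3 and Asb4, which separated the lines, and Zim1 and Dlk1, which stood out in a day 5 replicate. Peg10, which separated the lines as well, had no window among the promoter sequences used. Each run is the 250 bases before a RefSeq transcription start in GRCm38.p6, 5′ to 3′ on the gene's strand, with every CG dinucleotide, the site of DNA methylation, in capitals. Where a gene has several starts (4 for Igf2, 2 for Asb4) the window with the most CG is shown.
Igf2, chr7:142658805-142659054, minus strand: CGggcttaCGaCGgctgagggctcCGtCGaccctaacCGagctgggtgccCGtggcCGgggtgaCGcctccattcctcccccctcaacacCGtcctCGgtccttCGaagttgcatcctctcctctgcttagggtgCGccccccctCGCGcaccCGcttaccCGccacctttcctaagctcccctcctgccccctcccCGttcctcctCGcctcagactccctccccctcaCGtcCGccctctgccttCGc
Peg3, chr7:6730420-6730669, minus strand: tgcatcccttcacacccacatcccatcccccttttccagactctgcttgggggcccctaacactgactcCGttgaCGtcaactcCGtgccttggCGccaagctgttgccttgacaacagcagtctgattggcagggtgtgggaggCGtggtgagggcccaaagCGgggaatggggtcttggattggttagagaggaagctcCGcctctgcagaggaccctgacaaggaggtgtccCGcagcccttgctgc
Zim1, chr7:6696433-6696682, minus strand: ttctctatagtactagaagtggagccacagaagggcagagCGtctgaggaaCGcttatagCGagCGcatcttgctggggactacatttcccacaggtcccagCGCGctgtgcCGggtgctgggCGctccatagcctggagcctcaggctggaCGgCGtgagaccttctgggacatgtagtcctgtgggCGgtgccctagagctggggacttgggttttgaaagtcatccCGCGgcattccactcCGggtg
Asb4, chr6:5390160-5390409, plus strand: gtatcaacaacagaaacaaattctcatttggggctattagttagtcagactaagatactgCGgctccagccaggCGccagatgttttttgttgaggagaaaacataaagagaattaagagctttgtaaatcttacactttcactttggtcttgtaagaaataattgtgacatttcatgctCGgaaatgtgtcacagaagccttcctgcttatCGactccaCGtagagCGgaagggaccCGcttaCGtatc
Dlk1, chr12:109452573-109452822, plus strand: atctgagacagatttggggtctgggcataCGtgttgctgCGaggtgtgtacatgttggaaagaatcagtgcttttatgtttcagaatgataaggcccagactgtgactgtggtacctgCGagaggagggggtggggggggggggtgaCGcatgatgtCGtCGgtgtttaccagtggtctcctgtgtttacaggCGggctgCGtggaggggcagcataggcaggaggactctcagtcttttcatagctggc
The Igf2 window held 22 CG dinucleotides, more than 85.2% of the 32851 windows of this length in the table, and Zim1 held 14. Peg3, Asb4 and Dlk1 held 8 each, against a median of 6 over all windows and of 10 over the 47 windows of the 30 members that matched the table. The windows of Igf2 not shown held 10, 6 and 1, and that of Asb4 not shown held 4. The hexamer TGCCGC, which contains a CG and is the motif of the imprint keeper Zfp57, was searched on both strands. It was found 1 time in the Zim1 window and in none of the other 4 shown, in 6 of the 47 member windows, and in 8.68% of all windows. Windows of 1 gene can overlap, and those of the Mest starts at 30738050 and 30738053 both count among the 6. GCCATNTT, the motif of the zinc finger protein Yy1, was found in none of the 5 windows, in 3 of the 47 and in 3.91% of all. Peg3 and Usp29 are read in opposite directions from starts 164 bases apart, so their windows overlap by 163 bases. A match is a description of letters and not a bound site.

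The comparison of the lines on day 4 asks how far 2 derivatives of 1 ES cell line differed in imprinted transcripts. Each pair mean includes 1 array with dox, which moved Geminin in opposite directions in the 2 lines. Igf2, Asb4, Peg3 and Peg10 stood higher in the overexpression line in each of its arrays than in any knockdown array, by 1.64 ± 0.45, 1.18 ± 0.21, 1.47 ± 0.39 and 0.55 ± 0.20 (log2 difference ± SE, 1 pair mean against 3). These differences are 3.12-fold for Igf2, 2.77-fold for Peg3 and 1.46-fold for Peg10. For Asb4 the fold is at least 2.02, with levels under the brightness limit of 6.455 set to that limit. In the arrays without dox alone the differences were 1.78 for Igf2, 1.34 for Asb4, 1.64 for Peg3 and 0.43 for Peg10. In the arrays with dox alone they were 1.51, 1.03, 1.30 and 0.66. Limma on the pair means called 0 of 29 members after adjustment over all genes (0% of all genes called). An unadjusted p under 0.05 was reached by 5 members, all higher, and by 4.7% of all genes. Differences beyond 1 log2 unit were found in 3 of 29 members and in 0.828% of all genes. Asb4 is in both counts, though it was tested only through its bright overexpression arrays.

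Igf2, the paternally expressed growth factor of the H19-Igf2 cluster, was at 8.90 and 8.62 (without and with dox) in knockdown replicate 1, at 8.45 and 8.55 in replicate 2, and at 8.44 and 8.79 in replicate 3. In the overexpression line it was at 10.37 and 10.16 on day 4, at 11.07 and 10.95 in day 5 replicate 1, and at 12.31 and 12.37 in day 5 replicate 2. The lowest overexpression array thus lay well above the highest knockdown array, and dox made little difference to that order. The limma adjusted p for the day 4 difference was 0.856, with an unadjusted p of 0.00891. Its clearance receptor Igf2r did not separate the lines on day 4, at 10.04 to 10.80 against 10.08 to 10.13 (difference -0.19 ± 0.37).

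Peg3, a paternally expressed zinc finger gene linked to growth and maternal behaviour, was at 9.25 and 9.68, 8.79 and 9.12, and 9.63 and 9.85 in the 3 knockdown pairs (without and with dox). It was at 10.87 and 10.85 in the overexpression pair of day 4, at 11.25 and 10.97 in day 5 replicate 1, and at 11.83 and 12.08 in day 5 replicate 2. As with Igf2, every overexpression array exceeded every knockdown array (for Peg3, limma adjusted p = 0.836 on day 4, unadjusted 0.00768). Its neighbours in the cluster, Usp29 (a ubiquitin protease gene) and Zim1 (a maternally expressed zinc finger gene), were dim and untested. Usp29 ranged from 5.68 to 6.50 over all arrays, while Zim1 was at 5.46 to 6.03 in the knockdown line and at 6.48 and 6.37 in the day 4 overexpression pair.

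The Peg10-Sgce cluster held Asb4. This gene, a maternally expressed gene for an ankyrin repeat protein of a ubiquitin ligase, was at 5.92 and 6.58, 6.19 and 6.25, and 6.54 and 6.53 in the knockdown pairs. Asb4 in the overexpression line was at 7.56 and 7.48 on day 4, and on day 5 at 8.29 and 8.08 in replicate 1 and 8.53 and 8.65 in replicate 2. The groups did not overlap. The knockdown mean of 6.33 lay under the brightness limit of 6.455, so Asb4 was among the genes tested through the bright overexpression arrays, and it was not tested with the limit at the 40th percentile. Its p-values are therefore given as a description. The limma adjusted p was 0.518 on pair means and 0.0242 in the fit with no replicate block, which counts the arrays of a pair as separate samples and passed Asb4 alone of the 29 members (0.408% of all genes called).

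Peg10, a paternally expressed gene of retrotransposon origin needed for the placenta, was at 12.09 to 12.60 in the knockdown line, 12.82 and 13.02 in the overexpression pair of day 4, and 12.91 to 13.30 on day 5. The separation was complete but small (limma adjusted p = 0.999, unadjusted 0.0327). Its knockdown pairs were at 12.60 and 12.37, 12.09 and 12.16, and 12.47 and 12.56, and its overexpression pairs at 12.82 and 13.02 on day 4, 12.91 and 12.94 in day 5 replicate 1, and 13.12 and 13.30 in day 5 replicate 2. Sgce, the sarcoglycan gene next to it, stood at 8.70 and 8.68, 8.47 and 8.30, and 8.35 and 8.77 in the knockdown pairs and at 8.69 and 8.78 in the day 4 overexpression pair, a difference of 0.19 ± 0.25. Ppp1r9a, a neuronal actin-binding protein gene of the same cluster, was on the other side of 0 at -0.28 ± 0.20.

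**Figure D1:**
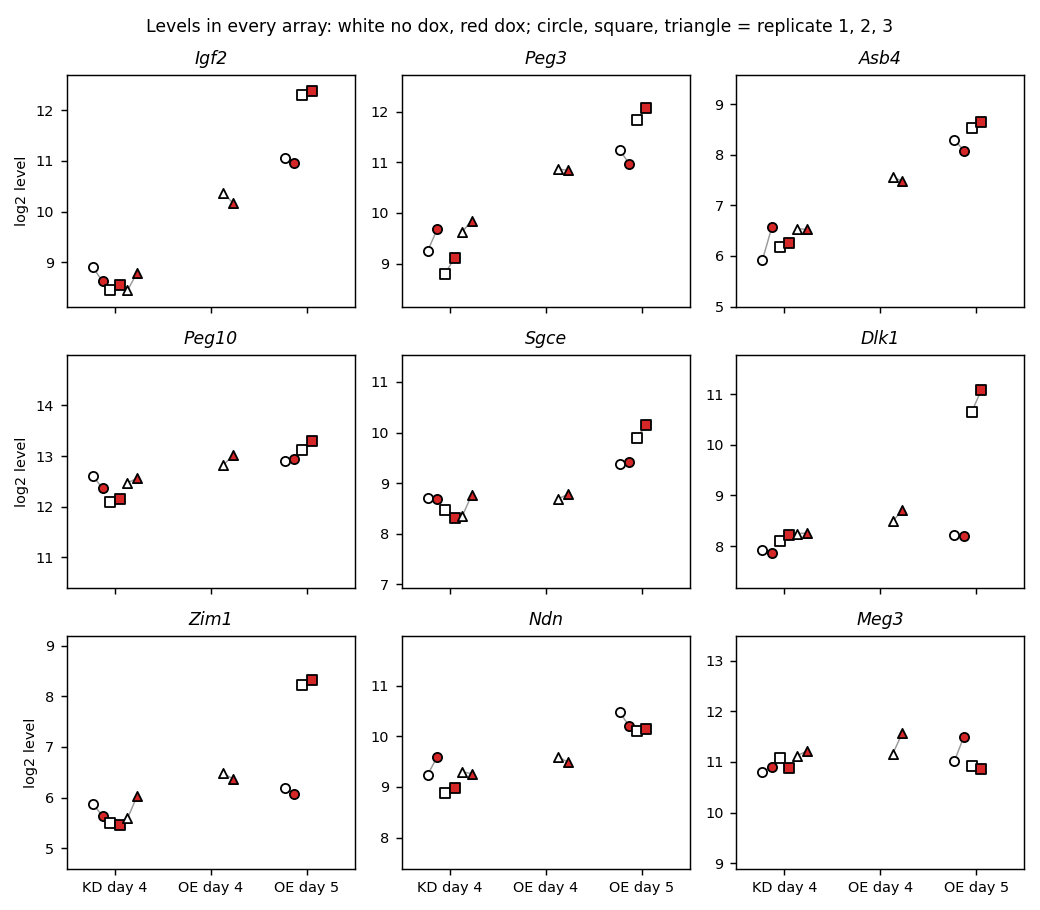
Log2 levels of 9 imprinted genes in every array, in the knockdown (KD) line on day 4 and the overexpression (OE) line on days 4 and 5, with a line joining the arrays of a pair (white no dox, red dox); every panel spans the same log2 range. Igf2, Peg3, Asb4 and Peg10 do not overlap between the lines, and Dlk1 and Zim1 stand high in day 5 replicate 2 alone.

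With the 3 overexpression pairs pooled, 4 of 29 members had all 6 overexpression arrays above all 6 knockdown arrays, namely Igf2, Peg3, Peg10 and Asb4, against 3.15% of all genes. None of the 29 lay wholly below (1.82% of all genes). Asb4 was tested only through its bright overexpression arrays, so it is counted here as a description. The pair means were 8.63 ± 0.13 and 11.21 ± 1.05 for Igf2, 9.38 ± 0.40 and 11.31 ± 0.58 for Peg3, and 6.33 ± 0.17 and 8.10 ± 0.54 for Asb4 (knockdown and overexpression, SD over 3 pairs each). Genes that separate completely reach the smallest p that an exact permutation test of 3 against 3 pairs allows, 0.1, by construction, so no test is drawn from it. Here day differs along with line in 2 of the 3 overexpression pairs. For Asb4 the fold over all days is at least 3.03, with levels under the limit set to it.

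On day 4 alone, 6 of 29 members had both overexpression arrays above all 6 knockdown arrays, against 8.11% of all genes: the 4 above, Dlk1 and Magel2. The same limit holds for Asb4 in this count. Dlk1, a Notch-family ligand gene of the Dlk1-Dio3 cluster, was at 7.86 to 8.26 in the knockdown line and at 8.50 and 8.71 in the day 4 overexpression pair. Magel2, a paternally expressed gene of the Snrpn-Ube3a cluster, was at 7.80 to 8.12 and at 8.35 and 8.28. Slc22a18, a transporter gene of the Kcnq1 cluster, was the 1 member that lay wholly below (7.60 to 7.81 against 7.57 and 7.50), against 8.41% of all genes.

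By cluster, all 5 tested members of the Dlk1-Dio3 cluster were on the higher side in the overexpression line on day 4, by 0.05 to 0.50, with the maternally expressed long RNA Meg3 at 0.37 ± 0.19 and Rian, another maternal RNA that hosts small nucleolar RNAs, at 0.28 ± 0.14. In the Kcnq1 cluster 5 of 6 were on the lower side, from -0.26 ± 0.30 for Cdkn1c to -0.03 ± 0.17 for the tetraspanin Cd81, and Phlda2, a restrainer of placental growth, was at 0.16 ± 0.14. Limma called none of these 11 genes (smallest adjusted p 0.999). Grouped by the copy usually expressed, 11 of 16 paternally and 4 of 12 maternally expressed members were on the higher side (median 0.19 and -0.12), beside a median of -0.01 over all genes. The growth factor receptor adaptor Grb10, expressed from either copy depending on the tissue, was at 0.12 ± 0.24.

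The mesoderm markers moved with line as well: 14 of 14 tested were higher in the overexpression line on day 4 (median 1.41), led by Mixl1 (2.71 ± 0.96), Lhx1 (2.55 ± 0.81), Evx1 (2.25 ± 0.40) and the receptor gene Kdr (2.07 ± 0.35). Limma called 0 of them on pair means and 5 with no replicate block. Their summed intensity was 3130 to 8352 in the knockdown arrays, 12900 and 14510 in the day 4 overexpression arrays, and 10500 to 14980 on day 5. Within the knockdown line the mesoderm mean spanned 7.30 to 8.48 over the arrays, where Igf2 spanned 8.44 to 8.90 and Peg3 8.79 to 9.85. Peg3 and the mesoderm list were both lowest in replicate 2 (mesoderm mean 7.30 and 7.64) and both higher with dox in each of the 3 pairs. The pair mean of Igf2 was also lowest in replicate 2 (8.50), but with dox Igf2 differed by -0.28, 0.10 and 0.35 in replicates 1 to 3. Asb4, near the brightness limit there, differed by 0.66, 0.06 and -0.01. The part of mesoderm cells in the difference of Igf2, Peg3 and Asb4 was not tested. Visceral endoderm markers, another source of Igf2 in the embryo, had a mean level of 8.17 to 9.18 in the knockdown arrays and of 8.11 and 8.13 in the day 4 overexpression arrays, with 12 of 16 tested genes on the lower side (0 called). Pluripotency markers were also on the lower side for 12 of 14 (median -0.44, 0 called). Trophoblast markers had a mean of 7.42 to 8.10 and of 8.20 and 8.26 in these groups. Of this list 5 of 7 tested genes were on the higher side (median 0.16, 0 called). The largest differences were those of Eomes (1.67), which is also in the mesoderm list, Cdx2 and Gata3 (1.25), while Elf5 was at -0.38. Whether trophoblast cells differed between the lines was not tested. Feeder fibroblast markers had a mean of 7.58 to 7.83 and of 7.84 in both arrays.

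**Figure D2:**
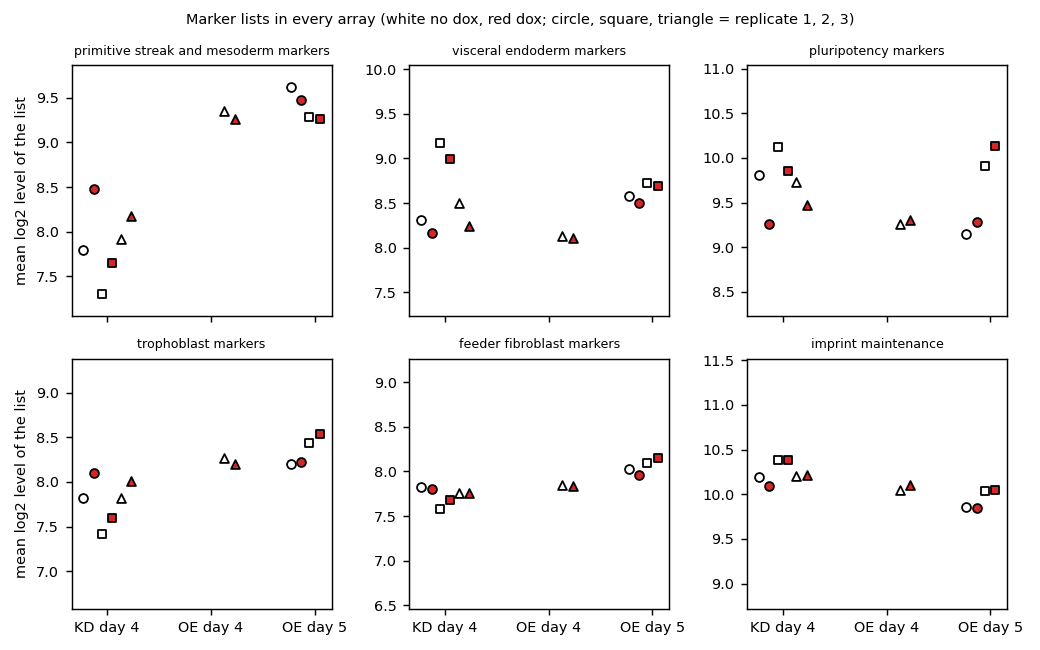
Mean log2 level of 6 gene lists in every array, by line and day (white no dox, red dox; the marker shape gives the replicate). The primitive streak and mesoderm list is at 7.30 to 8.48 in the knockdown line and at 9.26 to 9.62 in the overexpression line, while the visceral endoderm list overlaps between them.

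The comparison of day 5 with day 4 in the overexpression line asks which imprinted transcripts build up as embryoid bodies age, with 2 pairs on day 5 and 1 on day 4. It shares the day 4 arrays with the comparison of lines, and day cannot be told apart from replicate 3. Of the 29 members 22 were on the higher side on day 5, with a median of 0.22 beside 0.00 over all genes. Igf2 (1.41 ± 0.47), Sgce (0.98 ± 0.26), Dlk1 (0.93 ± 0.91) and Asb4 (0.87 ± 0.22) had the largest differences. Without replicate 2 Igf2 was at 0.74 and without replicate 1 at 2.07, and the median of the members was 0.12 and 0.29. Limma called 0 members (0% of all genes), and 8 had an unadjusted p under 0.05, 5 higher and 3 lower, against 6.09% of all genes. With no replicate block limma also called 0 members, beside 0.558% of all genes.

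In 13 of 29 members all 4 day 5 arrays lay above both day 4 arrays, against 15.4% of all genes, and in 2, Rtl1 and Magel2, they lay below, against 15.1%. Sgce was at 9.39 and 9.43 in day 5 replicate 1 and 9.90 and 10.15 in replicate 2, against 8.69 and 8.78 on day 4 (limma adjusted p = 0.738). Asb4 and Igf2, whose array values are given above, showed the same order of the days (limma adjusted p = 0.675 and 0.762). Ndn, a paternally expressed gene for a growth-suppressing neuronal protein in the Snrpn-Ube3a cluster, was at 10.11 to 10.48 on day 5 and at 9.60 and 9.49 on day 4, a difference of 0.69 ± 0.22. In the knockdown pairs Ndn was at 9.24 and 9.59, 8.89 and 8.98, and 9.30 and 9.26, below every day 5 array. Mkrn3 of the same cluster, which restrains the onset of puberty, was at 0.50 ± 0.15, whereas Magel2 was at -0.34 ± 0.13. These neighbours therefore did not share a direction.

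The Dlk1-Dio3 cluster was split too. Dlk1 stood on the higher side, but Rtl1, a retrotransposon-derived placental gene, was at -0.52 ± 0.19, Rian at -0.41 ± 0.15, Meg3 at -0.30 ± 0.20 and Dio3, which inactivates thyroid hormone, at -0.23 ± 0.14. Rtl1 was at 7.05 to 7.40 on day 5 against 7.72 and 7.90 on day 4 (limma adjusted p = 0.772). In the Kcnq1 cluster Cdkn1c, Phlda2, Kcnq1 (a potassium channel gene) and Ascl2 (a trophoblast transcription factor gene) were between -0.01 and 0.04, with SE from 0.14 to 0.31. Cd81 (0.36 ± 0.18) and Slc22a18 (0.27 ± 0.13) were on the higher side, and Cd81 was at 11.72 and 11.87 on day 4, 11.94 and 12.03 in day 5 replicate 1, and 12.25 and 12.40 in day 5 replicate 2. In the knockdown pairs Cd81 was at 11.81 and 11.68, 12.07 and 11.78, and 11.78 and 11.84, which overlapped both days. All 6 members outside the clusters were on the higher side, by 0.13 to 0.47, with Grb10 at 0.45 ± 0.26. Dcn, a collagen-binding proteoglycan gene, was at 0.47 ± 0.25, but both of its day 4 arrays (6.38 and 6.41) lay under the brightness limit, and with these set to the limit it was at 0.42. Feeder fibroblast markers were on the higher side for 14 of 17 tested genes (median 0.15), visceral endoderm markers for 13 of 16 (median 0.40) and pluripotency markers for 10 of 14 (median 0.37), with 0 called in each list. The pluripotency mean was 9.26 and 9.31 on day 4, 9.14 and 9.28 in day 5 replicate 1, and 9.91 and 10.13 in replicate 2. Among the 4 lower genes, Pou5f1 fell from 12.61 and 12.64 to 11.96 to 12.13. Nanog fell from 12.02 in both arrays to 11.25 to 11.78. Their part in the day 5 differences was not tested.

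**Figure D3:**
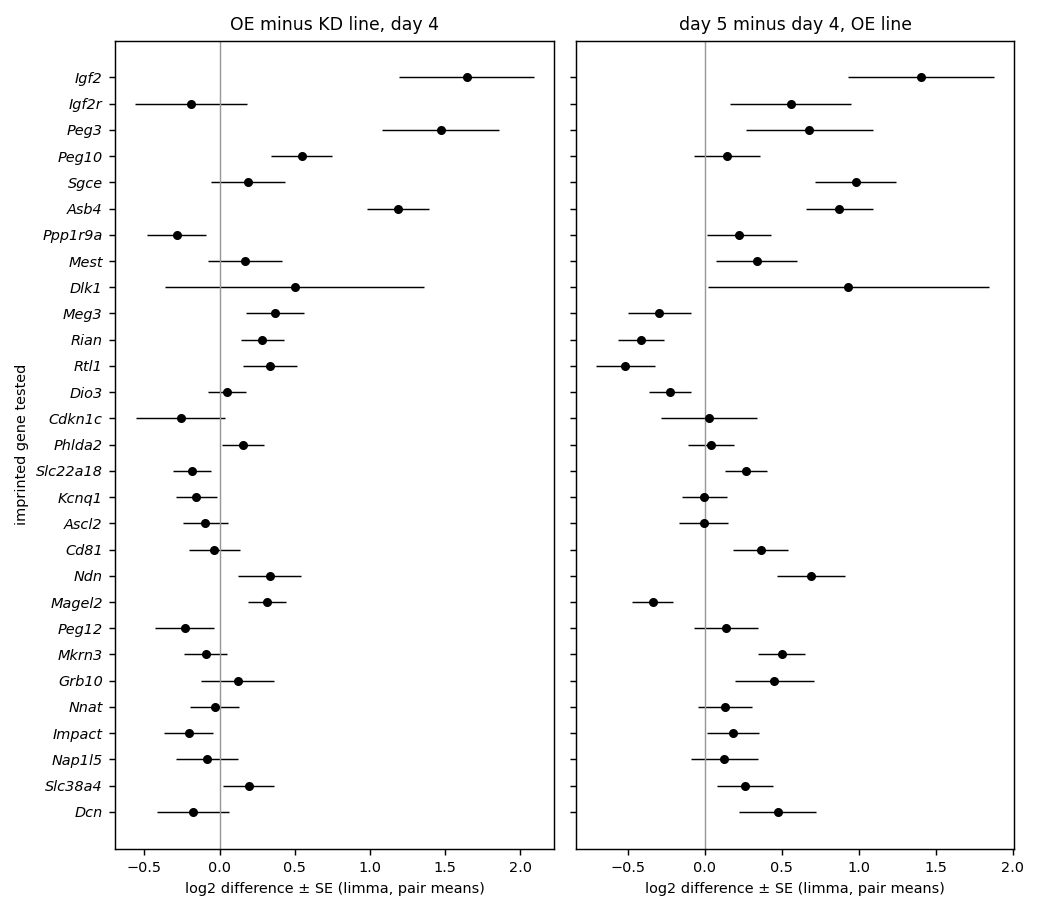
Fitted log2 differences ± SE of the 29 tested imprinted genes, for the overexpression (OE) minus the knockdown (KD) line on day 4 (left) and for day 5 minus day 4 in the OE line (right). Igf2, Peg3 and Asb4 lie furthest from 0 on the left, and Igf2, Sgce, Dlk1 and Asb4 on the right, with the widest error for Dlk1.

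The 2 day 5 replicates stood far apart in Dlk1 and Zim1. Dlk1 was at 10.65 and 11.08 in replicate 2 and at 8.23 and 8.19 in replicate 1, which is 6.29-fold between the pair means. Zim1 was at 8.23 and 8.33 in replicate 2 and at 6.19 and 6.07 in replicate 1. The latter values lie under the brightness limit, so the fold is at least 3.55. In the knockdown pairs Dlk1 was at 7.92 and 7.86, 8.10 and 8.22, and 8.24 and 8.26. The replicate 1 values of Dlk1 lay below those of day 4 (8.50 and 8.71), and those of Zim1 below its day 4 values as well, so the day 5 level of both genes rests on 1 replicate. Without replicate 2 the Dlk1 difference between the days was -0.39 in place of 0.93. Igf2 (2.52-fold), Igf2r (1.90-fold), Peg3 (1.80-fold) and Mest (1.58-fold), a paternally expressed hydrolase-like gene, were also higher in replicate 2. Mest was at 11.32 to 11.66 in the knockdown line and in the day 4 pair at 11.63 and 11.68, and at 12.36 and 12.29 in this replicate. Over the members 18 of 29 were higher in replicate 2 (median 0.21), beside 8027 of 15950 genes (median 0.00). With 1 pair each the difference has no test. Pluripotency markers moved with it, at a mean of 9.91 and 10.13 in replicate 2 and 9.14 and 9.28 in replicate 1, and visceral endoderm markers were at 8.72 and 8.70 against 8.57 and 8.50. Trophoblast markers were at 8.43 and 8.54 against 8.20 and 8.22, and mesoderm markers went the other way, at 9.29 and 9.26 in replicate 2 against 9.62 and 9.48 in replicate 1. The part of these marker lists in it was not tested.

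**Figure D4:**
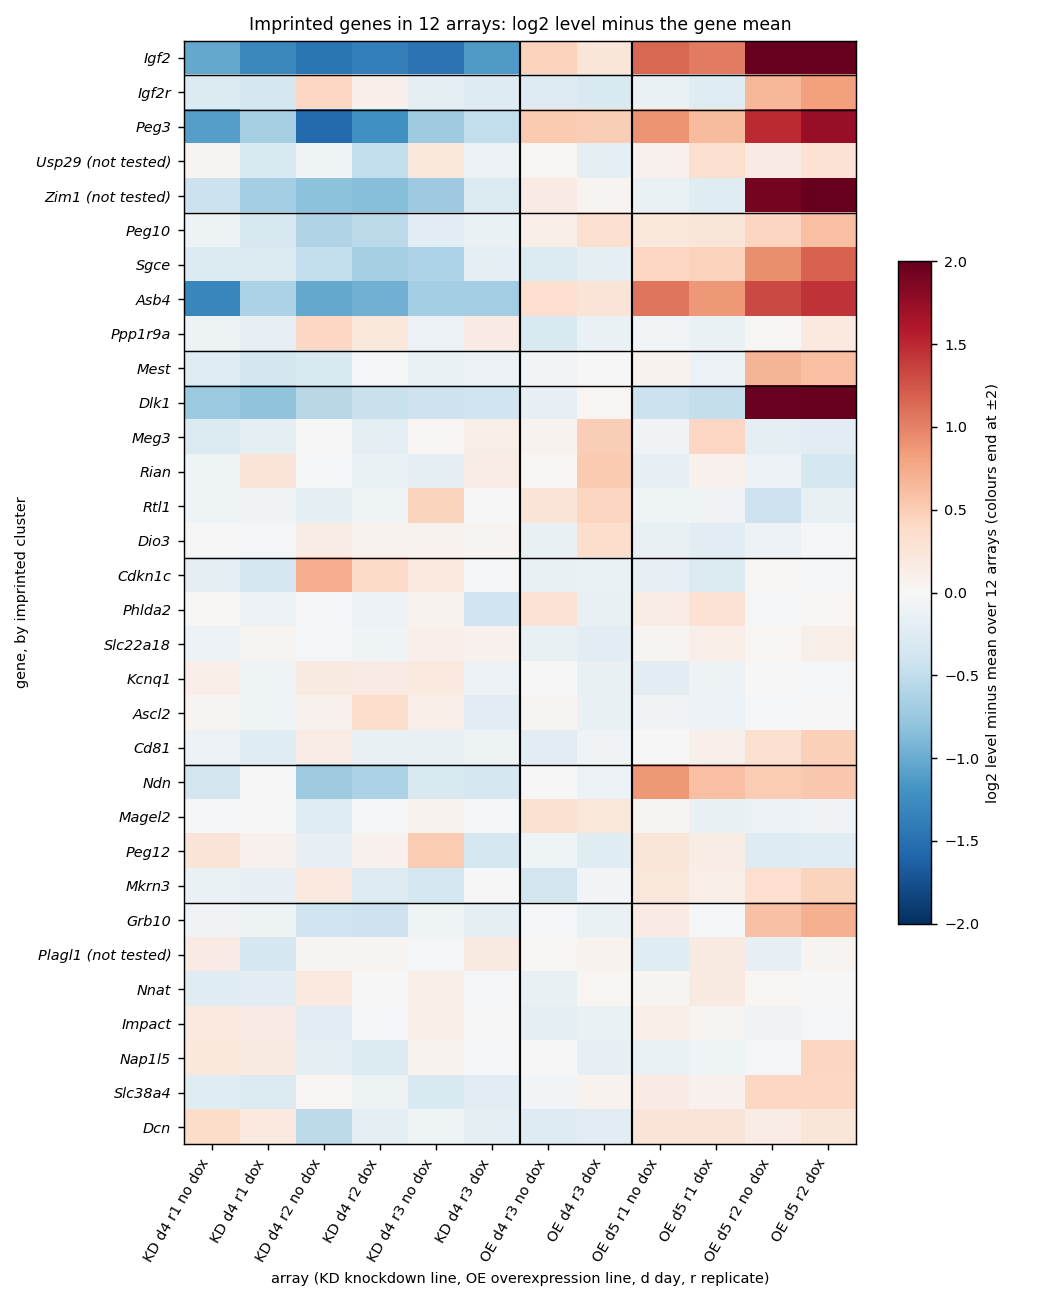
Log2 level minus the gene's mean over 12 arrays, for the 32 imprinted genes with a probe set of their own (rows, by cluster) in each array (columns; d day, r replicate; vertical lines part the knockdown line, the overexpression line on day 4 and the same line on day 5). Colours end at 2 log2 units, and Dlk1, Zim1 and Igf2 are darkest in day 5 replicate 2.

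The comparison with and without dox asks whether imprinted transcripts follow a lower or a higher Geminin level, within each replicate pair. In the knockdown line 12 of 29 members were higher and 17 lower with dox (median -0.03, beside 0.01 over all genes), and in the overexpression line 16 were higher and 13 lower (median 0.01 in both). Limma with the pair as a block called 0 members in either line, beside 0.00627% of all genes, which is 1 gene, in each. That gene was Hprt, beside which the inducible cassette of A2lox cells lies. Gmnn, the gene that the constructs act on, was itself not called in either line. A count of 0 called members therefore does not show that members were unchanged. An unadjusted p under 0.05 was reached by 2 members in the knockdown line, against 12.2% of all genes, and by 1 in the overexpression line, against 3.59%. For the difference of the dox effects it was reached by 0 members, against 8.68%, and limma called 0 (0% of all genes). All members differed by less than 1 log2 unit in every pair, from -0.86 to 0.66.

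Peg3 was higher with dox in all 3 knockdown pairs, by 0.43, 0.33 and 0.22 in replicates 1 to 3 (fitted 0.33 ± 0.10, limma adjusted p = 0.344). In the overexpression line its pairs differed by -0.27 and 0.25 on day 5 and by -0.02 on day 4. The difference of the 2 dox effects was 0.34 ± 0.15 (limma adjusted p = 0.58). In the knockdown line mesoderm markers were on the higher side with dox for 12 of 14 tested genes (median 0.45), while pluripotency markers were on the lower side for 13 of 14 (median -0.32) and visceral endoderm markers for 15 of 16 (median -0.26), with 0 called in each list. Their part in the dox values of the members was not tested. Cdkn1c was lower with dox in the 3 knockdown pairs, with differences of -0.14, -0.35 and -0.23 (fitted -0.24 ± 0.07, limma adjusted p = 0.318), and at -0.12, -0.04 and 0.01 in the overexpression pairs. Igf2r, Dio3, Kcnq1, Grb10, Nap1l5 and Phlda2 were also lower with dox in each of the 3 knockdown pairs. Some of these values were close to 0, as for Grb10 (-0.11 to -0.01) and Dio3 (-0.08 to -0.02). How many of all genes keep 1 direction in the 3 pairs was not counted, so no result about the members is drawn from these directions. Phlda2 was the 1 member whose 3 dox arrays (10.32 to 10.60) lay below its 3 arrays without dox (10.69 to 10.78) in the knockdown line, against 3.25% of all genes (fitted -0.24 ± 0.13, limma adjusted p = 0.482). Replicate 3 differed by -0.47 and the others by -0.14 and -0.10, and without replicate 3 the fitted value was -0.12. No member's dox arrays lay wholly above in that line (4.97% of all genes), nor on either side in the overexpression line (1.94% and 1.84%).

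By array, without and with dox, Phlda2 was at 10.74 and 10.60, 10.69 and 10.59, and 10.78 and 10.32 in the 3 knockdown pairs. Overexpression pairs of Phlda2 were at 10.99 and 10.56 on day 4, 10.85 and 10.99 in day 5 replicate 1, and 10.66 and 10.74 in day 5 replicate 2, so the day 4 pair had the order of the knockdown pairs and the day 5 pairs the opposite one.

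Other large values rested on 1 pair. Asb4 was 0.66 higher with dox in knockdown replicate 1 and at 0.06 and -0.01 in the others (fitted 0.24 ± 0.14). With levels under the limit set to it the fitted value was 0.04. Peg12, a paternally expressed Gsk3-binding protein gene, was 0.86 lower with dox in knockdown replicate 3 and at -0.18 and 0.25 in replicates 1 and 2. Its levels were 9.17 and 8.99, 8.75 and 8.996, and 9.42 and 8.56 in the knockdown pairs, where the array of replicate 3 without dox was the highest and that with dox the lowest. The overexpression pairs of Peg12 were at 8.83 and 8.67 on day 4, 9.15 and 9.06 in day 5 replicate 1, and 8.66 and 8.67 in day 5 replicate 2. Without replicate 3 its fitted value was 0.04 in place of -0.26.

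In the overexpression line the 5 Dlk1-Dio3 members were all on the higher side with dox, by 0.15 to 0.28 in the fit. Without the day 4 pair Rian was at 0.00 in place of 0.16 and Dio3 at 0.01 in place of 0.17, so the direction of these 2 rests on that pair. Meg3 was higher in replicate 1 of day 5 (0.49) and in the day 4 pair (0.41), and at -0.05 in day 5 replicate 2 (fitted 0.28 ± 0.12, limma adjusted p = 1, unadjusted 0.0458). Rian had the same signs in these pairs, at 0.24, 0.48 and -0.24. Dlk1 differed by -0.04, 0.43 and 0.21 in replicates 1 to 3, Rtl1 by 0.01, 0.27 and 0.18, and Dio3 by -0.07, 0.08 and 0.50. The day 4 pair (replicate 3) was the only pair with all 5 above 0. Dlk1 and Dio3 were below 0 in day 5 replicate 1, and Meg3 and Rian in day 5 replicate 2. Meg3 was at 10.80 and 10.90, 11.09 and 10.89, and 11.12 and 11.21 in the knockdown pairs (without and with dox), and at 11.16 and 11.58 on day 4, 11.01 and 11.50 in day 5 replicate 1, and 10.92 and 10.87 in day 5 replicate 2. Its highest array was that of day 4 with dox, and the lines overlapped.

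The other members of this cluster had the following levels. Rian was at 7.96 and 8.31, 8.01 and 7.92, and 7.85 and 8.19 in the knockdown pairs, and at 8.08 and 8.56 on day 4, 7.89 and 8.13 in day 5 replicate 1, and 7.93 and 7.69 in day 5 replicate 2. Rtl1 was at 7.38 and 7.41, 7.29 and 7.39, and 7.91 and 7.48, and at 7.72 and 7.90 on day 4, 7.39 and 7.40 in day 5 replicate 1, and 7.05 and 7.33 in day 5 replicate 2. Dio3, close to the brightness limit throughout, was at 6.48 and 6.45, 6.64 and 6.56, and 6.55 and 6.53, and at 6.34 and 6.84 on day 4, 6.34 and 6.27 in day 5 replicate 1, and 6.37 and 6.45 in day 5 replicate 2. For Rian and Dio3 the array of day 4 with dox was again the highest of the 12. In the knockdown line these genes were between -0.10 and 0.20, and the difference of the dox effects was -0.29 ± 0.17 for Meg3 and -0.26 ± 0.16 for Rtl1 (limma adjusted p = 0.638 and 0.651). Without knockdown replicate 3 the Rtl1 value was -0.09.

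**Figure D5:**
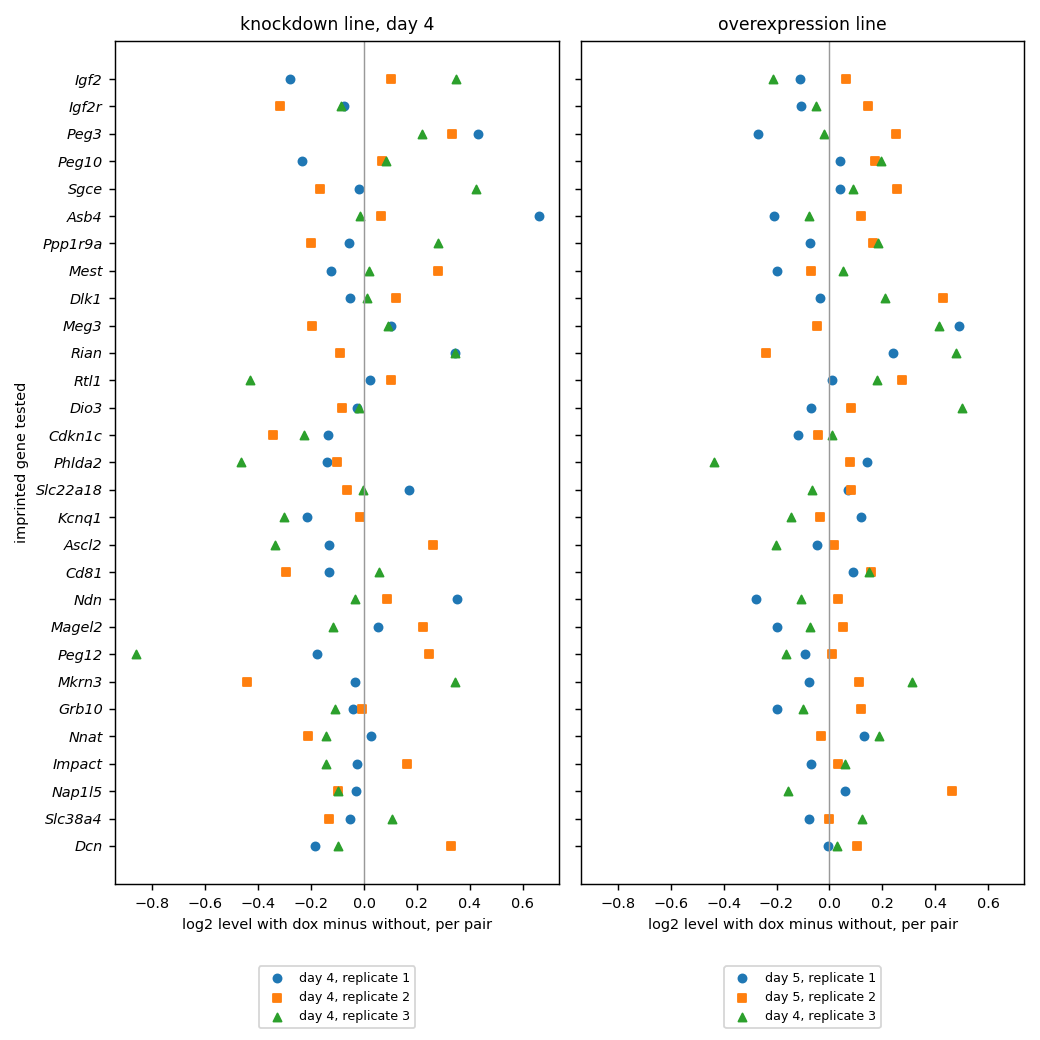
Log2 level with dox minus without dox for each of the 29 tested imprinted genes, 1 point per replicate pair, in the knockdown line (left) and the overexpression line (right). Peg3 lies above 0 in all 3 knockdown pairs. Cdkn1c, Phlda2, Igf2r, Dio3, Kcnq1, Grb10 and Nap1l5 lie below 0 in all 3, while most members have points on both sides. The share of all genes that keep 1 direction was not counted.

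Other members of the insulin-like growth factor axis were followed beside Igf2 and Igf2r. Of 18 tested genes of this list 13 were on the higher side in the overexpression line on day 4 (median 0.12) and limma called 0, with 2 at an unadjusted p under 0.05. The binding proteins Igfbp3 (1.06 ± 0.46) and Igfbp4 (1.05 ± 0.33) and the RNA-binding protein Igf2bp3 (0.45 ± 0.18), which binds the Igf2 transcript, were on that side, and the protease Htra1 was at -0.999 ± 0.752. From day 4 to day 5 11 of 18 were on the higher side (0 called), with Htra1 at 1.09 ± 0.80, Igfbp4 at 0.77 ± 0.35 and Igfbp3 at -0.45 ± 0.48. With dox 11 of 18 in the knockdown line and 9 of 18 in the overexpression line were on the higher side (0 called in each).

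Genes that set or keep imprints were also followed, among them the DNA methyltransferases, the Tet enzymes and Zfp57. On day 4, 13 of 21 tested were on the lower side in the overexpression line (0 called), led by Dnmt3l (-1.76 ± 0.87), the cofactor of germ-line methylation, and Tet1 (-0.53 ± 0.41). From day 4 to day 5, 14 of 21 were on the lower side and 0 were called on pair means. The de novo methyltransferases Dnmt3b (-1.22 ± 0.28) and Dnmt3a (-0.66 ± 0.15) were called with no replicate block (limma adjusted p = 0.0457 for each) and not on pair means (adjusted p = 0.639 for each). In the knockdown line Dnmt3l was at -0.74 ± 0.18 and Zfp57 at -0.29 ± 0.10 with dox, with 13 of 21 on the higher side and 0 called. In the overexpression line 13 of 21 were on the higher side and 0 called, with Zfp57 at 0.22 ± 0.10.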

How the data were processed

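Affymetrix Mouse Gene 1.0 ST arrays were hybridised with biotin-labelled target from total RNA, per the labels' protocols. Each of 35512 probe sets has 1 linear intensity per array in the deposited table of 12 arrays. How they were summarised, background-corrected and normalized is not given in the sources used here. Precision is limited by there being 12 arrays. Intensities were taken to log2 after adding 1 and quantile-normalized, since the array medians lay between 7.19 and 7.52. Probe sets were named from the platform annotation: 21789 had 1 gene, 1621 several and 12102 none, and a gene with several was represented by the brightest. Genes with a mean below the 20th percentile were not tested.

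Tests were made with limma 3.58.1 in R 4.3.3 over all 15950 genes, with Benjamini-Hochberg adjustment at 0.05. Line and day were compared on the means of the 6 replicate pairs, with a baseline for each line and day (3 residual and 3.57 prior degrees of freedom). The 1 overexpression pair of day 4 is assumed to vary like the others. Dox was tested with the pair as a block (4 residual and 3.07 prior degrees of freedom). SE are those of the model. The pairs share a line and a replicate number, and the labels do not say what a number stands for. Deviations from the group mean correlated within pairs at 0.602, 0.438 and 0.051 in the knockdown line and 0.785 on day 5, so the pairing rests on the numbers and is weak in knockdown replicate 3. The members and lists were chosen with earlier results of these data known. Members named by rule were those called, the 4 with the largest absolute difference in each comparison, and the brightest of each cluster with 2 or more tested genes. Other members were singled out after their values were seen. From each other list at most 4 genes were named, those with the largest absolute differences. Pou5f1 and Nanog were named after their values were seen. The fits were also run on simulated data with known differences, but the outcome is not given here and no result rests on it. Alternatives covered the normalization, pseudocount (16), filter (none, 40th percentile), levels under the limit set to it, probe set rule, array weights, block, arrays used and pairs left out.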

Additional observations from a re-analysis of the deposited data

How the results depend on the processing

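The 20 differences of named members were recomputed under 26 alternatives where these apply, which gave 383 values: 365 had the same direction and side of the threshold, 15 passed it and 3 changed sign. The sign changes were Dlk1 between the days, which ranged from -0.39 (without overexpression replicate 2) to 2.26 (without replicate 1) in either fit, and Peg12 with dox in the knockdown line, which ranged from -0.52 (without knockdown replicate 2) to 0.035 (without replicate 3). The count of members called was 0 in each comparison, except as follows. Between the lines on day 4 it was 1 (Asb4, among 65 genes in all) with no replicate block. It was also 1 (Asb4, among 47 genes in all) with all 3 overexpression pairs pooled over days. With no replicate block and 1 pair left out, alternatives chosen after seeing the data, it was 1 without knockdown replicate 3, 0 without knockdown replicate 1 or 2, and 3 (Asb4, Igf2 and Peg3) without either day 5 replicate. In this fit without knockdown replicate 1 or 2 the Asb4 difference was 1.14 and 1.13, near the 1.18 with all pairs (adjusted p = 0.0746 and 0.0823 in limma), in fits with fewer samples. Between the days members were also called with no replicate block and without overexpression replicate 1, another added alternative. That fit sets 1 day 5 pair against 1 day 4 pair and counts their arrays as separate samples. No count is therefore drawn from it. No share of all genes is given for the fits with a pair left out, so their counts are no result about the members. With array weights, 4 members (Asb4, Kcnq1, Ndn and Peg3) were called for dox in the knockdown line, among 2381 genes in all, in a fit with 4 residual degrees of freedom.

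Over all genes the main count was 0 for line, against 65 with no replicate block and 13 with the block as a random effect. For day it was 0 against 89 and 0. Each knockdown array correlated best with its own number, a hint of pairing from the data and not from the design. With no replicate block the dox comparisons called 0 members in either line. Line and day could not be fitted without overexpression replicate 3. A level below about 6.455 cannot be told from the dimmest genes of the array, which limits Usp29, Zim1, Plagl1, the knockdown level of Asb4 and those arrays of Dcn, Dio3, Nnat and Nap1l5 that lie under it. With every level under the limit set to it, an alternative chosen after seeing the data, the count of members called was 0 in each comparison.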

Other observations

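Imprinted genes outside the 38 were described by a further list of 46 entries, 34 of them tested. Limma called 0 of them for line, day or dox, with or without the replicate block. On day 4, 20 of 34 were on the lower side in the overexpression line (median -0.06), and 18 of 34 were on the lower side on day 5 against day 4 (median -0.01). The phospholipid flippase gene Atp10a (-0.78 ± 0.25) and the calcitonin receptor gene Calcr (-0.78 ± 0.38) had the largest differences between the days, while Airn, the RNA that silences the paternal Igf2r copy, was at 0.63 ± 0.26. Calcr lies near Asb4 in the Peg10-Sgce region and was at 7.25 to 8.40 in the knockdown line, 7.68 and 7.88 in the day 4 overexpression pair and 6.71 to 7.12 on day 5, the opposite order of the days from Asb4.

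With dox in the knockdown line 19 of 34 were on the lower side (median -0.04, 0 called), with Ins2, an insulin gene, at -0.33 ± 0.14 and Cobl, an actin nucleator gene, at -0.33 ± 0.14. Atp10a was at 0.46 ± 0.10 and Zdbf2, a paternally expressed zinc finger gene, at 0.32 ± 0.06 (limma adjusted p = 0.242 and 0.222). Zdbf2 was at 10.17, 9.81 and 10.29 without dox and at 10.47, 10.18 and 10.56 with dox in replicates 1 to 3, so each pair had the same direction. In the overexpression line 24 of 34 were on the higher side with dox (median 0.06, 0 called). Jade1, a placenta-imprinted gene of histone acetylation, was at 0.23 ± 0.08 and Sfmbt2, a polycomb gene imprinted in the placenta, at 0.28 ± 0.10 (limma adjusted p = 1 for both).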
